A study of Mus musculus with 6 samples.

Results

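Immunoglobulin genes were read out in the hypoxic lungs of mice lacking Nfat5 in endothelial cells and of their controls. Members were all genes whose platform symbol names a heavy, kappa or lambda variable (V) segment, together with the constant genes Igkc, Ighm, Igha, Ighg1 and Ighg3 and the joining chain gene Jchain. They numbered 205 of the 24704 named genes on the array: 94 heavy V, 102 kappa V and 3 lambda V segments, 5 constant genes and Jchain. Ighd was not analysed here. Symbols and not values chose the members, but the family was picked for description when it was known that 6 V segments were called higher and 25 lower in the knockout. The differences between knockout and control lungs given below for the members are therefore a description, with log2 fold changes, standard errors and confidence intervals but without p-values.

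An antibody is made of heavy and light chains, and a B cell builds each chain by joining a V segment to a short J segment (in heavy chains with a D segment between them) upstream of a constant gene. Light chains are kappa or lambda, and most mouse antibodies carry kappa. Constant heavy genes set the class, with Ighm for IgM, Igha for IgA and Ighg1 and Ighg3 for classes of IgG. The protein from Jchain links IgM and IgA into polymers that epithelia can export. In tissue, most immunoglobulin RNA comes from plasma cells, which secrete antibody, and less from resting B cells.

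Knockout mice, labelled Nfat5(EC)-/-, carried an endothelium-specific deletion of Nfat5 that was induced in adult males and females aged 10 to 12 weeks with 1 mg tamoxifen a day, injected intraperitoneally on 5 days. Controls, labelled Nfat5fl/fl, received the solvent miglyol, so that genotype and tamoxifen differed together and cannot be told apart. Both groups rested for 2 to 3 weeks and then spent 7 days in hypoxia before their lungs were flushed with chilled Ringer solution to clear blood and whole tissue was taken for RNA. The labels name neither the driver of the endothelial deletion nor the sex of each animal. The design names 4 mice per group and states that preparations with contaminating tissue or a poor expression response to hypoxia were left out, and arrays of 3 knockout and 3 control lungs were analysed here.

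Across the series, 6292 genes passed the threshold (adjusted p under 0.05, limma; 25.5%), and Nfat5 itself stood at 3.89 to 4.48 in knockout lungs, against 6.30 to 6.65 in control lungs (log2 expression). The 9 lung markers were bright in all samples, and their mean level per array was 9.43 to 9.81 in knockouts and 10.1 to 10.3 in controls, with 4 of them called lower, among them the endothelial genes Pecam1 and Cdh5 (log2 fold changes −1.59 ± 0.34 and −1.52 ± 0.26). The median snoRNA level separated the groups, at 6.43 to 7.43 on knockout arrays and 4.01 to 4.20 on control arrays. Xist, an RNA that marks female cells, stood at 2.03 to 2.28 on knockout arrays. On control replicate 1 it stood at 8.22, against 2.36 and 2.37 on the other controls. By this marker, that array alone came from a female. The parts of the snoRNA shift and of sex in the results below were not tested.

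The kappa constant gene was the constant gene with the clearest difference. Igkc (Entrez gene 16071, chromosome 6) encodes the constant part that all kappa light chains share. Its log2 expression was 8.40, 8.97 and 9.32 in knockout lungs, against 11.4, 10.5 and 10.7 in control lungs. Every knockout array lay below every control array. The means were 8.90 ± 0.47 in knockouts and 10.9 ± 0.47 in controls (SD, n = 3 each). Igkc fell 3.88-fold, with a log2 fold change of −1.96 ± 0.31 (SE) and a 95% confidence interval of −2.65 to −1.26, and it passed the threshold in each fit without 1 array. In whole-lung RNA, fewer kappa-expressing cells and less kappa RNA per cell cannot be told apart.

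Constant genes of the heavy chain had smaller differences with overlapping groups. Ighm, the IgM constant gene, stood at 8.43, 8.74 and 7.49 in knockout lungs, against 9.90, 8.33 and 9.04 in control lungs, and the lowest control array lay below 2 of the knockout arrays. Its log2 fold change of −0.87 ± 0.43 did not pass (95% interval −1.84 to 0.10). Igha, the IgA constant gene, stood at 6.09, 5.03 and 6.88 in knockouts and 7.28, 6.68 and 6.53 in controls. Knockout replicate 4 reached into the control range, and the log2 fold change of −0.83 ± 0.42 (interval −1.79 to 0.13) did not pass with all arrays, although it did without that array (−1.27).

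The IgG genes Ighg1 and Ighg3 were dim. Ighg1 stood at 1.42, 2.18 and 2.64 in knockouts and 3.29, 2.82 and 2.41 in controls (−0.76 ± 0.34, interval −1.53 to 0.0038), levels around the arrays' median of 2.97 or below it. Ighg3 had the interval closest to 0, at 2.66, 3.37 and 2.73 in knockouts and 2.96, 2.82 and 3.23 in controls (−0.08 ± 0.24, interval −0.63 to 0.47). The joining chain gene Jchain stood at 3.43, 3.93 and 5.10 in knockouts and 5.67, 4.60 and 4.48 in controls (−0.76 ± 0.45, interval −1.78 to 0.25). As for Igha, knockout replicate 4 was the highest of its group, and without it Jchain passed the threshold (−1.23). Of the 6 constant and joining chain genes 1 was called lower and 0 higher, where 13% of all genes were called lower, and all 6 had negative log2 fold changes, with a median of −0.80 against 0.04 over all genes. Without knockout replicate 4 the number called was 3. Whether Igkc differed more than Ighm or Igha was not tested.

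**Figure D1:**
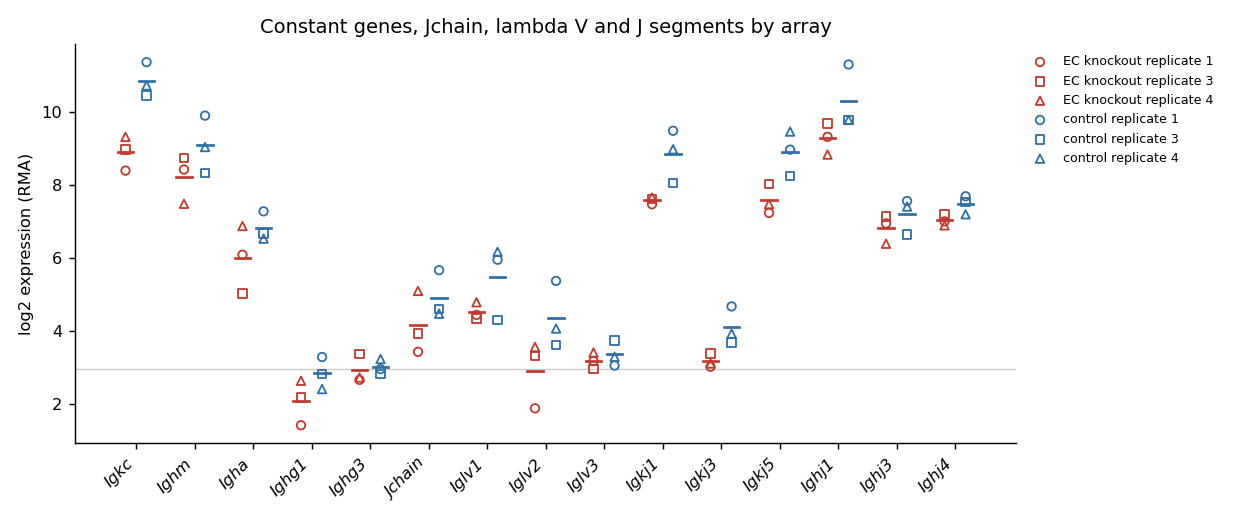
Log2 expression (RMA) of the constant genes, Jchain, the lambda V segments and the measured kappa and heavy J segments on each array; red symbols are EC knockout lungs, blue symbols control lungs, the symbol shape gives the replicate number, short bars are group means (n = 3) and the grey line is the median of all genes, 2.97. The knockout symbols of Igkc (8.40 to 9.32) and of Igkj1, Igkj3 and Igkj5 lie below all control symbols, as do those of Iglv2, Ighj1 and, narrowly, Ighj4, while those of Ighm and Igha overlap with the controls.

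J segments lie between the V segments and the constant gene and are part of every rearranged transcript. They were outside the rule that chose the members, but they share transcripts with them. Their list was also chosen with earlier results known, so the p-values below are no independent test of the kappa differences. All 3 measured kappa J segments were lower in the knockout. Igkj1 stood at 7.58 ± 0.098 in knockouts and 8.84 ± 0.72 in controls (log2 fold change −1.26 ± 0.33, limma adjusted p = 0.023), Igkj5 at 7.58 ± 0.41 and 8.90 ± 0.61 (−1.31 ± 0.33, adjusted p = 0.020) and Igkj3 at 3.17 ± 0.19 and 4.10 ± 0.51 (−0.92 ± 0.27, adjusted p = 0.036; SD, n = 3 each). These calls were lost without control replicate 1 (limma adjusted p = 0.083 for Igkj1, 0.078 for Igkj5 and 0.11 for Igkj3) and without control replicate 4 (0.075, 0.069 and 0.068), and that of Igkj3 also without knockout replicate 1 (0.075) or 4 (0.074). The 3 heavy J segments did not pass, with log2 fold changes of −1.01 ± 0.41 for Ighj1, −0.44 ± 0.21 for Ighj4 and −0.38 ± 0.30 for Ighj3. Other constant heavy genes outside the rule did not pass either, at −1.27 ± 0.46 for Ighg2c, 0.25 ± 0.44 for Ighg2b and −0.23 ± 0.25 for Ighe.

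Lambda light chains are the minor light chains of the mouse, and only 3 V segments on chromosome 16 represent them. Iglv1 stood at 4.44, 4.34 and 4.79 in knockouts and 5.95, 4.31 and 6.17 in controls. Control replicate 3 lay below the knockouts, and without it the log2 fold change of −0.95 ± 0.44 became −1.54 and passed. Iglv2 stood at 1.88, 3.31 and 3.56 in knockouts and 5.37, 3.62 and 4.07 in controls (−1.44 ± 0.52); the groups did not overlap, but the gene did not pass. Iglv3 stood at 3.18, 2.97 and 3.41 in knockouts and 3.05, 3.75 and 3.29 in controls (−0.18 ± 0.24). Limma thus called 0 of 3 lambda segments, with 1 at an unadjusted p under 0.05, and all 3 had negative log2 fold changes.

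Kappa V segments differed on both sides of 0 but more often downward. Of 102 segments, 16 were called lower (15.7%) and 2 higher (1.96%), where 13% of all genes were called lower and 12.5% higher. The contrast had been seen when the family was chosen, so nothing is read from these shares. Their median log2 fold change was −0.47, against 0.04 over all genes, and 76 of the 102 were negative. The median kappa V level was 2.01, 2.17 and 2.13 on the knockout arrays and 2.85, 2.63 and 2.72 on the control arrays, so that the groups did not overlap. All knockout arrays lay below all control arrays at 31 kappa segments, or above them at 3, where 20% and 21.9% of all genes were separated in these directions. Over all 205 members the groups did not overlap at 44 in the downward and 13 in the upward direction, beside 41.9% of all genes in either direction.

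The largest fall among kappa segments was also the lowest log2 fold change of all 24704 genes. Igkv1-110 stood at 1.18, 3.57 and 1.63 in knockout lungs, against 6.22, 5.78 and 7.47 in control lungs. Knockout replicates 1 and 4 fell below the arrays' lower quartile (2.02). Background was not measured there, which leaves the size of the difference uncertain. Its log2 fold change was −4.37 ± 0.62 (interval −5.77 to −2.97). In the order of the locus it lies between Igkv2-109 and Igkv14-111 among the segments measured, and both fell as well, Igkv2-109 by 1.78 and Igkv14-111 by 1.32 on the log2 scale. Igkv14-111 and the position of this trio were picked after the values were seen.

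Other large falls were found across the kappa locus. Igkv5-43 stood at 1.77, 1.27 and 1.74 in knockouts, all below the lower quartile, and 3.95, 3.53 and 4.03 in controls (−2.24 ± 0.23). Igkv2-109 stood at 1.97, 2.34 and 3.65 in knockouts and 4.52, 3.84 and 4.95 in controls (−1.78 ± 0.44). Igkv4-68 stood at 3.74, 5.41 and 4.86 in knockouts and 6.67, 5.69 and 6.83 in controls (−1.73 ± 0.44). In none of these 3 did the groups overlap, but knockout replicate 4 of Igkv2-109 and knockout replicate 3 of Igkv4-68 came close to the lowest control. Igkv2-109 lost its call without knockout replicate 3 or control replicate 1 or 4, and Igkv4-68 lost it without control replicate 1 or 4.

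Rises of kappa segments came from the same subfamily, Igkv4, that also held 5 of the falls. Igkv4-74 stood at 8.96, 8.35 and 7.64 in knockout lungs, against 5.53, 5.47 and 6.28 in control lungs, a 5.89-fold rise (log2 fold change 2.56 ± 0.35, interval 1.76 to 3.36). Igkv4-58 stood at 6.65, 6.04 and 6.32 in knockouts and 4.79, 4.48 and 4.94 in controls (1.60 ± 0.23). The lowest knockout array exceeded the highest control array in both. The measured neighbours of Igkv4-58 in the locus, Igkv4-57-1 and Igkv4-59, were picked after the values were seen. They fell by 1.68 and 1.27 on the log2 scale. The groups of Igkv4-57-1 overlapped, and its call held in only 1 of 6 fits without 1 array. Igkv4-59 stood at 1.57, 1.01 and 1.16 in knockouts, all below the lower quartile, which leaves the size of its fall uncertain. The rises of Igkv4-74 and Igkv4-58 held in each fit without 1 array. Segments of a subfamily share much of their sequence, and the probe sequences were not used here, so signal of a relative on a probe set cannot be told apart from its own.

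Heavy V segments were called in both directions. Of 94 segments, 9 were called lower (9.57%) and 4 higher (4.26%), again beside 13% and 12.5% of all genes, and 57 had negative log2 fold changes, with a median of −0.14. The median heavy V level was 2.14, 2.35 and 2.11 on the knockout arrays and 2.63, 2.44 and 2.76 on the control arrays, and the groups did not overlap. Their mean level did overlap, at 2.67 to 2.83 on knockout arrays and 2.77 to 3.08 on control arrays, as did the median of the 30 brighter segments, at 3.62 to 4.44 and 3.96 to 4.47. All knockout arrays lay below all controls at 11 segments and above them at 10, where 20% and 21.9% of all genes were separated in these directions. The number called depended on single arrays: it was 7 without control replicate 1 (4 higher, 3 lower), 7 without control replicate 3 and 6 without control replicate 4.

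The largest fall among heavy segments was that of Ighv3-1, at 2.76, 2.27 and 2.49 in knockouts and 4.87, 4.33 and 4.73 in controls (−2.14 ± 0.22). The arrays of each group were close together and the groups far apart. Rises were led by 2 segments of the Ighv2 subfamily. Ighv2-3 stood at 8.73, 8.05 and 7.98 in knockout lungs, against 6.92, 5.79 and 6.01 in control lungs, a 4.04-fold rise (2.01 ± 0.33). Ighv2-9-1 stood at 6.78, 6.29 and 5.89 in knockouts and 4.89, 4.33 and 4.86 in controls (1.63 ± 0.27). Within each of these probe sets every knockout array was above every control array, and the calls of Ighv3-1, Ighv2-3 and Ighv2-9-1 held in each fit without 1 array. Ighv1-15 stood at 5.25, 4.73 and 4.47 in knockouts and 3.76, 3.85 and 4.28 in controls (0.85 ± 0.26), and lost its call without knockout replicate 1 or 3 or control replicate 1 or 3.

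**Figure D2:**
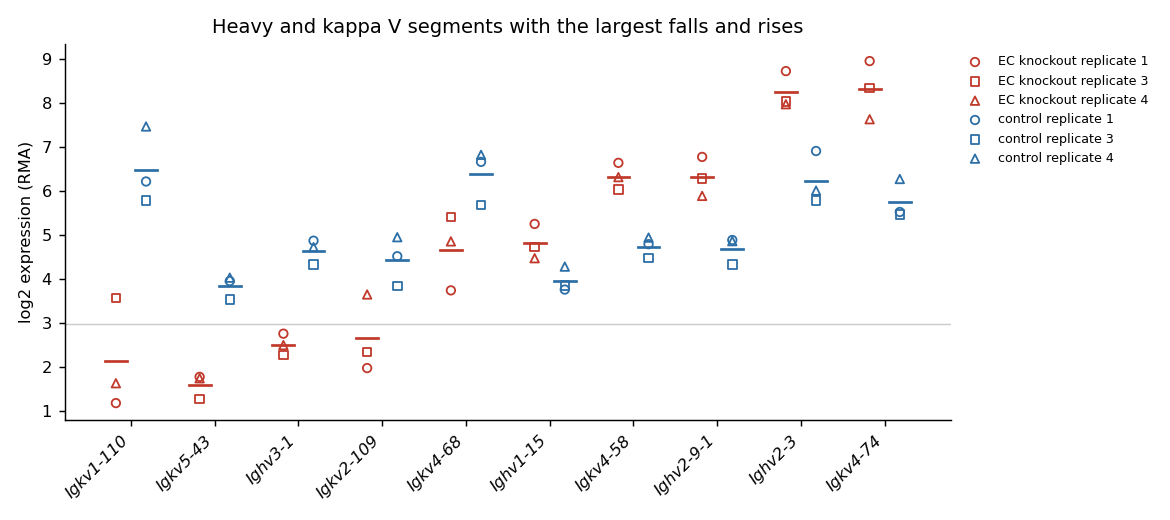
Log2 expression (RMA) on each array of the 5 heavy or kappa V segments with the largest falls (left) and the 5 with the largest rises (right) among those called with groups that did not overlap; red symbols are EC knockout lungs, blue symbols control lungs, the shape gives the replicate number, short bars are group means (n = 3) and the grey line is the median of all genes, 2.97. Igkv1-110 shows the widest gap, with knockouts at 1.18 to 3.57 and controls at 5.78 to 7.47, and Igkv4-74 and Ighv2-3 show the opposite order.

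V segments are grouped into subfamilies by sequence, and the calls were spread over them. Of 17 subfamilies with at least 4 measured segments, Igkv5 had the lowest median log2 fold change (−1.16 over 5 segments, 2 called lower), followed by Igkv14 (−0.84 over 4, 1 called lower) and Igkv4 (−0.57 over 26, with 5 lower and 2 higher). All 8 Igkv6 segments had negative values (median −0.47, 2 called lower). The 47 Ighv1 segments, the largest heavy subfamily, had a median of −0.13 with 6 lower and 1 higher. Ighv2 had 2 of 9 called higher and 0 lower but a median of −0.05. The highest medians were those of Ighv8 (0.30 over 4 segments, 1 called higher) and Ighv9 (0.25 over 4, 0 called). Over all genes 13% were called lower and 12.5% higher. These subfamilies were compared after their values were seen and were not tested.

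Position in the locus showed little relation to the fold change. Segments were ordered by their distance from the constant gene in the RefSeq annotation of GRCm38.p6. Spearman's rho between that order and the log2 fold change was −0.04 across the 102 kappa segments and 0.02 across the 94 heavy segments, which share arrays and are not independent. In the part of the kappa locus nearest to the constant gene the median was −0.26 (34 segments, 5 called lower). It was −0.60 in the middle part (34, with 6 lower and 2 higher) and −0.46 in the farthest part (34, 5 lower). These counts stand beside 13% of all genes called lower and 12.5% higher.

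Brightness set how much could be seen. The table carries no detection calls, and 59 of the 199 V segments had both group means below the lower quartile of 2.02. Of the V segments called lower, 11 of 25 had a knockout mean below it, which leaves the size of those falls uncertain. Among the 34 kappa segments whose mean over all 6 arrays was above the median of all genes, 7 were called lower and 2 higher (20.6% and 5.88%), with a median of −0.88, where 21.6% of all genes in that range were called lower and 21.6% higher. Among the 68 dimmer kappa segments 9 were called lower and 0 higher (13.2%), with a median of −0.30, beside 4.42% of dimmer genes called lower and 3.35% higher. For heavy segments the brighter 30 had 3 lower and 3 higher (median −0.26) and the dimmer 64 had 6 lower and 1 higher (median −0.10).

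The V segments are short genes. They span 286 to 920 bases in the annotation, with a median of 465. Among 2414 other genes shorter than 1000 bases, 11.5% were called higher and 3.48% lower, beside 12.5% and 13% of all genes, and the median of their log2 fold changes was 0.09, against 0.04 over all genes. The V segments of T cell receptors, which are built alike but are used by T cells, were measured at 80 genes with 3 called higher and 3 lower (3.75% each) and a median of 0.0077, beside 12.5% and 13% of all genes, and 3.35% and 4.42% of genes up to the median level. Their median level, 1.96 to 2.05 on knockout arrays and 1.91 to 2.02 on control arrays, lay about the lower quartile, where changes may go unseen.

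**Figure D3:**
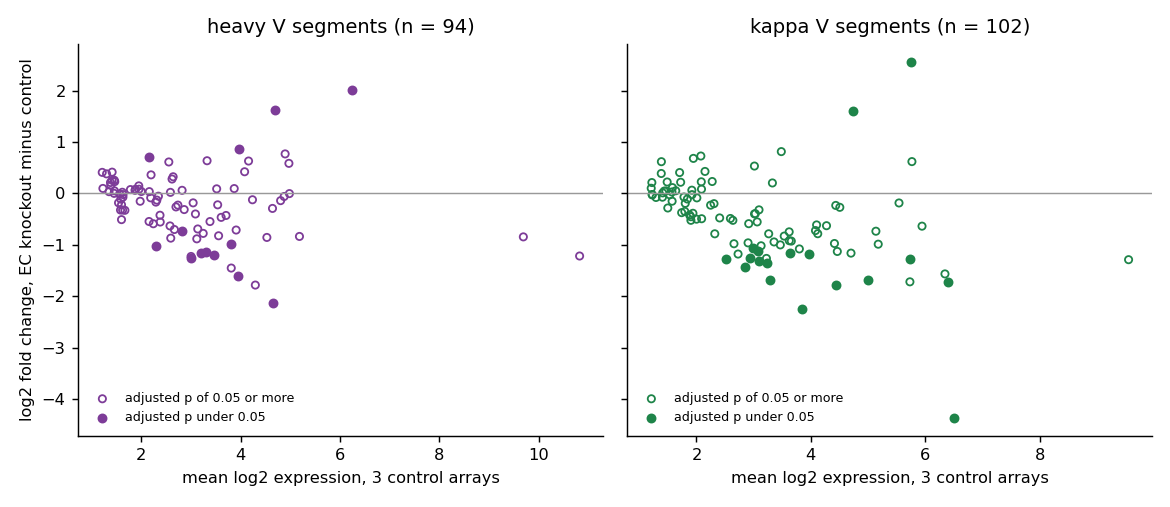
Log2 fold change (EC knockout minus control) of each heavy V segment (left, n = 94) and kappa V segment (right, n = 102) against its mean log2 expression on the 3 control arrays; filled points passed an adjusted p of 0.05 in the fit over all genes. Most filled points lie below 0, and Igkv1-110 stands alone at −4.37. Since the control mean is part of both axes, a downward slope is built into the plot.

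Annotation distinguished 185 plain V segments from 14 pseudogene V segments, and it does not state which are functional. Of the plain segments 24 were called lower and 6 higher (median −0.32). Of the pseudogene segments 1 was called lower and 0 higher (median −0.01), beside 13% of all genes called lower and 12.5% higher. The median level of the pseudogene segments was 1.61 to 1.82 on knockout arrays and 1.63 to 1.94 on control arrays, below the lower quartile. That of the plain segments was 2.06 to 2.33 and 2.64 to 2.85. Levels of different probe sets also reflect the probes, so this is an order of brightness, not of abundance. Igkv14-126, annotated as a pseudogene segment, was among the brightest kappa probe sets and is described next.

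The brightest V probe sets included known partners. Ighv11-2 with Igkv14-126, and Ighv12-3 with Igkv4-91, are heavy and light V pairs known in the mouse from B-1a cells, a self-renewing B cell population whose natural IgM recognises phosphatidylcholine. Ighv11-2 stood at 9.71, 9.81 and 9.30 in knockout lungs, against 12.0, 10.4 and 10.0 in control lungs (−1.22 ± 0.45, interval −2.23 to −0.20). The groups did not overlap, but the segment did not pass the threshold. It passed, with a log2 fold change of the same sign, among genes above the median level, with the replicate block and without control replicate 4. Its close relative Ighv11-1 stood at 8.86, 8.91 and 8.77 in knockouts and 10.9, 9.34 and 8.89 in controls (−0.85 ± 0.43, interval −1.83 to 0.13), with overlapping groups. The light chain partner Igkv14-126 stood at 7.61, 8.35 and 8.83 in knockouts and 10.7, 9.15 and 8.78 in controls (−1.29 ± 0.49, interval −2.41 to −0.17), with overlapping groups.

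In all 3 of these probe sets the control group was spread by 1 array. Control replicate 1 exceeded the mean of the other controls by 1.77 for Ighv11-2, 1.74 for Ighv11-1 and 1.77 for Igkv14-126, an excess that at most 0.0972% of all genes reached. In the other pair, named after its values were seen, Ighv12-3 stood at 3.49, 4.59 and 1.74 in knockouts and 5.28, 3.12 and 2.71 in controls. Igkv4-91 stood at 3.56, 4.69 and 3.77 in knockouts and 7.18, 4.57 and 5.44 in controls, so that control replicate 1 was again on top in both. Ighj1, the J segment that follows Ighv11-2 in many of these antibodies, stood at 9.32, 9.69 and 8.84 in knockouts, and at 11.3 on control replicate 1 and 9.79 on each of the other 2 controls. Cd5, a surface marker that B-1a cells share with T cells, stood at 2.84, 3.06 and 3.11 in knockouts. On control replicate 1 it stood at 3.03, against 2.95 and 2.63 on the other controls.

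**Figure D4:**
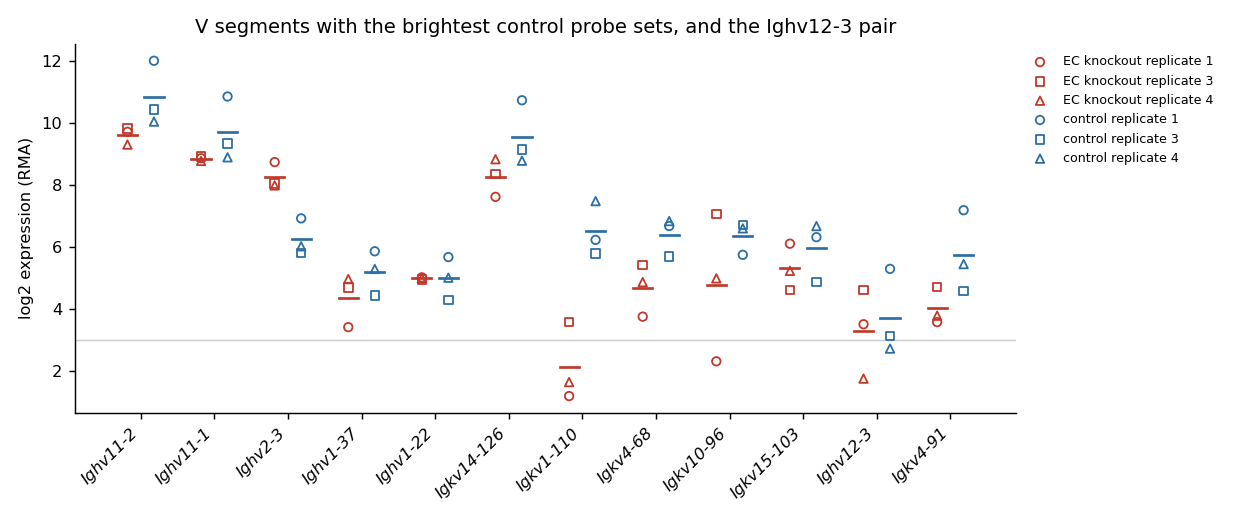
Log2 expression (RMA) on each array of the 5 heavy and 5 kappa V segments with the brightest control probe sets and of the pair Ighv12-3 and Igkv4-91; red symbols are EC knockout lungs, blue symbols control lungs, the shape gives the replicate number, short bars are group means (n = 3) and the grey line is the median of all genes, 2.97. Control replicate 1 (blue circles) stands highest for Ighv11-2, Ighv11-1, Igkv14-126, Ighv12-3 and Igkv4-91, with 12.0, 10.9, 10.7, 5.28 and 7.18.

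The remaining bright segments differed among animals of the same group. Igkv10-96 stood at 2.30, 7.06 and 4.98 in knockout lungs and at 5.74, 6.70 and 6.59 in control lungs (−1.57 ± 0.96), so that the knockouts spanned the whole control range. Igkv15-103 stood at 6.10, 4.60 and 5.22 in knockouts and 6.31, 4.85 and 6.67 in controls (−0.64 ± 0.50), with groups that overlapped in part. Ighv1-37 stood at 3.40, 4.68 and 4.95 in knockouts and 5.85, 4.42 and 5.28 in controls (−0.84 ± 0.46). Ighv1-22 was nearly the same in each knockout, at 5.01, 4.94 and 4.98, and lay at 5.67, 4.28 and 5.00 in controls (−0.0047 ± 0.32). Spread within groups was larger for brighter kappa segments, with a median SD of 0.64 in knockouts and 0.53 in controls, than over all genes of that brightness, with 0.37 and 0.19. For brighter heavy segments it was 0.56 in knockouts and 0.47 in controls.

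Among the controls, the order of the arrays was shared by many segments. Of the 67 V segments above the median level, control replicate 1 was highest at 33, control replicate 4 at 30 and control replicate 3 at 4, where each control array was highest at 30.8% to 36.1% of all genes of that brightness. Control replicate 3 was lowest at 46 of the 67 (68.7%). Among knockouts replicate 1 was highest at 17, replicate 3 at 24 and replicate 4 at 26. An excess of at least 1 log2 unit on control replicate 1 was found for 18 of 199 V segments (9.05%), against 0.712% of all genes, and a deficit of that size for 3 (1.51%), against 0.486%. The segments share these 3 arrays and are not replicates of one another, and the order was not tested. Control replicate 1 was also the array with high Xist (8.22), and the part of sex in this order was not tested. Ighv9-1, named after its values were seen, had the widest excess among members, at 3.94 to 4.38 in knockouts, and at 6.77 on control replicate 1, against 2.83 and 3.12 on the other controls.

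Markers of the cells that make immunoglobulin were called in both directions. Of 19 measured B cell markers 3 rose (15.8%) and 2 fell (10.5%), and their median was −0.14. These shares are near those of all genes, 12.5% and 13%, so nothing is read from the counts. The receptor of the survival factor BAFF, Tnfrsf13c, rose by 1.13 ± 0.25 (limma adjusted p = 0.012). Cd79a, a signalling chain of the B cell receptor, rose by 0.78 ± 0.25 (adjusted p = 0.047) and the IgM receptor Fcmr by 0.71 ± 0.21 (0.038). The inhibitory receptor Cd22 fell by 0.65 ± 0.19 (adjusted p = 0.039) and the scaffold Bank1 by 0.93 ± 0.28 (adjusted p = 0.040). Cd79b, the partner of Cd79a, had −0.80 ± 0.29, the surface protein Ms4a1 −0.43 ± 0.39 and the lineage factor Pax5 −0.32 ± 0.22, and these 3 did not pass. The number of B cell calls was 2 without knockout replicate 1, 3 without knockout replicate 3, 2 without knockout replicate 4, 1 without control replicate 1, 0 without control replicate 3 and 1 without control replicate 4.

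Of 15 plasma cell markers 3 rose and 3 fell, beside 12.5% and 13% of all genes, with a median of 0.18. Sdc1, a heparan sulfate proteoglycan on plasma cells that epithelia also carry, stood at 6.67 ± 0.084 in knockouts and 5.08 ± 0.22 in controls (SD, n = 3 each) and rose by 1.59 ± 0.19 (limma adjusted p = 0.0020). Derl3, of endoplasmic reticulum quality control, rose by 0.99 ± 0.20 (adjusted p = 0.0082), with a control mean of 1.98, below the lower quartile. The plasma cell survival receptor Tnfrsf17 had 1.56 ± 0.14 in knockouts and 2.54 ± 0.15 in controls, and its log2 fold change was −0.98 ± 0.19 (adjusted p = 0.0073), with the knockout level below the lower quartile. The surface receptor Slamf7 had −1.34 ± 0.26 (adjusted p = 0.0077). Regulators of the secretory programme did not pass: Xbp1 at −0.29 ± 0.20, Prdm1 at 0.18 ± 0.27, Irf4 at 0.20 ± 0.21 and the chaperone Mzb1 at 0.10 ± 0.21. The mean level of the list was 3.83 to 4.04 on knockout arrays and 3.85 to 3.95 on control arrays, and that of the B cell list 3.48 to 3.78 and 3.58 to 3.91. The part of B cell and plasma cell number in the differences of Igkc and the V segments was not tested beyond these values.

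Genes of early B cell development and V(D)J recombination were dim, with a mean level of 2.41 to 2.44 on knockout arrays and 2.32 to 2.76 on control arrays. Limma called 0 of 9, with 1 at an unadjusted p under 0.05. Vpreb3 and Igll1, of the early B cell receptor, had 0.63 ± 0.25 and 0.56 ± 0.26, the repair factor Xrcc4 −0.47 ± 0.24 and the DNA polymerase Dntt −0.38 ± 0.26. The recombinase gene Rag1, picked after its values were seen, stood at 1.78, 1.93 and 1.92 in knockouts, and at 3.53 on control replicate 1, against 1.97 and 1.66 on the other controls. Among markers of T cells and thymus, which lymphoid tissue beside the lung would carry, Cd2 rose (0.92 ± 0.22) and Cd3g fell (−1.10 ± 0.27) of 11 T cell genes, and Foxn1 (1.06 ± 0.30) and Aire (0.95 ± 0.25) rose and Psmb11 (−0.76 ± 0.20) fell of 10 thymus genes, beside 12.5% of all genes called higher and 13% lower. The knockout mean of Psmb11, 1.67, lay below the lower quartile. All 5 of the calls named for T cells and thymus were lost without control replicate 1 and without control replicate 3 (limma adjusted p = 0.052 to 0.12), and that of Cd2 also without control replicate 4 (0.065). Mean levels of the T cell and thymus lists were 3.18 to 3.43 and 2.60 to 2.84 on knockout arrays and 2.96 to 3.38 and 2.37 to 2.92 on control arrays. Erythroid genes, a sign of blood left after perfusion, were not called at any of 4, with 0 at an unadjusted p under 0.05 and log2 fold changes of −0.42 ± 0.69 for Hbb-bt, −0.11 ± 0.36 for Hbb-bs, 0.41 ± 0.43 for Slc4a1 and 0.92 ± 0.44 for Alas2. Alas2 passed without knockout replicate 1 (1.34, limma adjusted p = 0.040) and with the replicate number as a block (adjusted p = 0.018). The mean level of the 4 genes was 3.25, 4.89 and 4.89 on the knockout arrays and 3.66, 4.19 and 4.58 on the control arrays. Knockout replicate 1 was the lowest, as it was for the mean kappa V level, at 2.42, 2.64 and 2.65 on the knockout arrays and 3.17, 2.88 and 3.15 on the control arrays, and the part of blood in the results was not tested.

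Of 9 receptors that carry or bind immunoglobulin 1 rose and 3 fell (median −0.44), beside 12.5% and 13% of all genes. Pigr, the epithelial receptor that exports polymeric IgA and IgM, stood at 2.75, 3.71 and 3.74 in knockout lungs, against 4.65, 5.00 and 5.11 in control lungs, with groups that did not overlap (−1.52 ± 0.29, limma adjusted p = 0.0071). Fcgrt, the receptor that protects IgG from breakdown, rose by 0.92 ± 0.23 (adjusted p = 0.019). The inhibitory IgG receptor Fcgr2b had −0.86 ± 0.23 (adjusted p = 0.024) and the signalling chain Fcer1g −0.66 ± 0.20 (0.043). The call of Pigr held in each fit without 1 array. That of Fcgrt was lost without control replicate 1 (0.075) or 3 (0.081), that of Fcgr2b without knockout replicate 1 (0.053) or control replicate 1 (0.10) or 3 (0.092), and that of Fcer1g without knockout replicate 1 (0.091) or 3 (0.076) or any control array (0.11 to 0.13).

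Of 11 factors of B cell survival and homing 2 rose and 1 fell (median −0.32), beside the same shares of all genes, 12.5% and 13%. Cxcl13, the chemokine that draws B cells into follicles, stood at 3.66, 4.57 and 4.47 in knockouts and 6.49, 4.76 and 5.77 in controls (−1.44 ± 0.42, limma adjusted p = 0.035), with control replicate 1 again the highest. Its call was lost without control replicate 1 (0.12) or 4 (0.10) and without knockout replicate 1 (0.086) or 4 (0.052). Lymphotoxin beta, Ltb, and its receptor Ltbr, which organise lymphoid tissue, rose by 1.51 ± 0.24 and 1.31 ± 0.24 (adjusted p = 0.0039 and 0.0056), and both held in each fit without 1 array. Cxcl12, a chemokine that retains plasma cells, had −0.66 ± 0.27 and did not pass.

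**Figure D5:**
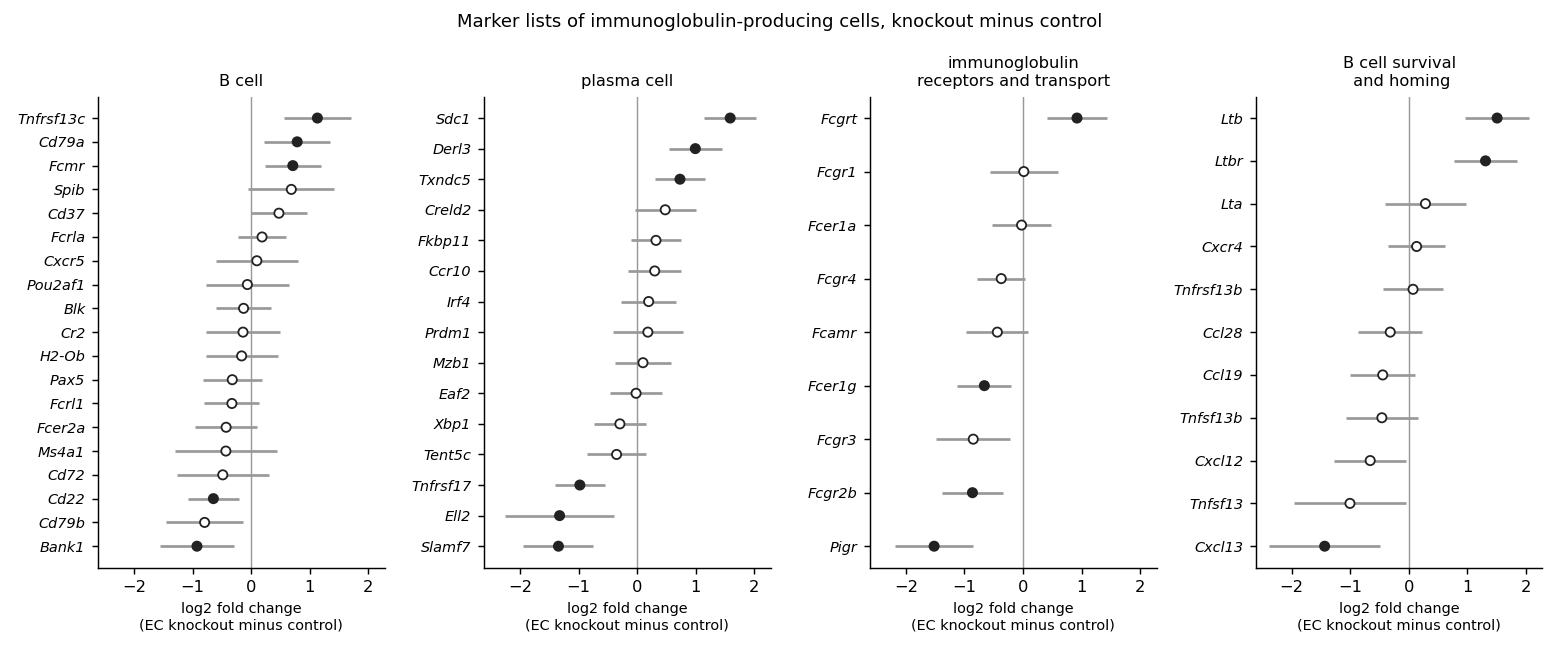
Log2 fold change (EC knockout minus control) of each measured gene in the lists for B cells, plasma cells, immunoglobulin receptors and transport, and B cell survival and homing; points are limma estimates, horizontal lines 95% confidence intervals, and filled points passed an adjusted p of 0.05 over all genes. In the B cell and plasma cell lists filled points lie on both sides of 0, from −0.93 for Bank1 to 1.13 for Tnfrsf13c and from −1.34 for Slamf7 to 1.59 for Sdc1.

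Promoters of immunoglobulin V segments are known for the octamer ATGCAAAT, bound by octamer factors of B cells. Of the members, only Jchain matched the RefSeq promoter table of GRCm38.p6, and its window of 300 bases around the gene start held the octamer on neither strand (reverse complement ATTTGCAT). Of 32851 promoter windows of that length in the table, 570 held it (1.74%).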

How the data were processed

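Gene expression was measured in 6 whole-lung samples on 1-colour Affymetrix arrays with biotin-labelled cRNA. The authors deposited log2 values made with RMA, per the submitters' processing notes, which give no version; the 6 columns have a median of 2.97. The platform annotation named 1 gene for 24705 of 25428 probe sets and several for 0, and it left 723 without a name here. The brighter of 2 probe sets was kept for 1 symbol, which left 24704 genes. RefSeq (GRCm38.p6) gave biotype, length and order in the locus for all 205 members; no coordinates are given, since the build of the probe sets is not stated.

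All genes entered 1 fit with limma 3.58.1 in R 4.3.3 (lmFit, eBayes), with Benjamini-Hochberg adjustment and a threshold of 0.05. Errors are moderated standard errors, and precision is limited by the 6 arrays. Nothing in the labels ties arrays to separate cages or extractions, so p-values measure only the spread between these samples. Pairing by replicate number was checked: deviations of same-numbered arrays correlated at −0.013 to 0.062 over genes, so the numbers were not taken as pairs. Few of 24704 genes were changed in data simulated for this comparison. The fit recovered 42 of 66 with a log2 change of 2, 6 of 67 with 1 and 0 of 67 with 0.5. It called 49 genes there, against 6292 in the real data, so the adjustment was stricter in the simulation. These shares do not give the share of real changes that the fit would find.

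Members and lists were chosen with earlier results of these data known. Genes were named by rule: all constant and lambda genes, the 5 heavy and 5 kappa segments brightest in controls, the 5 largest falls and rises among called heavy and kappa segments without overlap, up to 4 genes of smallest p per list, and defining B and plasma cell markers. Others are marked as named after their values were seen. Alternatives covered filters, normalization, variance trend, array weights, a replicate block, averaging of probe sets, a stricter threshold and leaving out each array.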

Additional observations from a re-analysis of the deposited data

How the results depend on the processing

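The alternatives changed how many members were called. Of the 32 member calls, 15 (4 higher and 11 lower) held in each of the 6 fits without 1 array. None of the 32 changed sign in those fits. Where the groups did not overlap, leaving out 1 array could not change the sign, so nothing is read from this. Leaving out 1 array gave 21 (without control replicate 1 or 4) to 45 (without knockout replicate 4) immunoglobulin members called, 6 to 16 for heavy V segments (13 with all arrays), 13 to 26 for kappa V segments (18), 0 to 1 for lambda V segments (0), 1 to 3 for constant genes and Jchain (1), 0 to 3 for B cell markers (5) and 2882 to 6155 for all genes called (6292), with 3141 without control replicate 1 and 2882 without control replicate 3. At an adjusted p under 0.01 there were 15 member calls, 3 heavy, 11 kappa, 0 B cell and 2560 over all genes. B cell markers had 3 calls with the intensity trend and 3 with the replicate block. Among genes above the median level 1 lambda segment was called, Iglv2. With genes up to the 25th percentile of level left out, the median log2 fold change was −0.29 for heavy and −0.81 for kappa segments, and −0.88 for kappa segments above the median; dropping dim members, whose fold changes lie nearer to 0, is part of those filters. With the replicate block 6082 genes were called, of which 12 were heavy and 23 kappa V segments. Over 75 named genes and their alternatives, 920 of 1037 values kept their side of the threshold and their sign, 80 lost the call, 20 gained it and 0 called values changed sign; 17 uncalled values crossed 0.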
